A study of Mus musculus with 4 samples.

Results

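Of the 12236 MOV10 peaks listed for N2A cells, 714 (5.84%) lay far from the place where most MOV10 peaks sit, more than 10 kb from the 3′ end of the gene that held them. They were chosen by position alone. A peak counted if its midpoint lay in the span of exactly 1 RefSeq gene of GRCm38.p6, if that span was at least 15 kb, and if the midpoint was more than 10 kb from the end of the span that is 3′ on the peak's own strand. The peaks came from 143 genes, all protein-coding, 10.1% of the 1421 genes of that length with a single-gene peak. The other 9264 single-gene peaks in genes of at least 15 kb served for comparison. Peaks whose midpoint lay in more than 1 gene span entered neither set.

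The list came from an eCLIP experiment on N2A, a mouse neuroblastoma cell line, grown with no treatment or genetic change named in the labels. It comprised 2 immunoprecipitates made with an anti-MOV10 antibody and 2 input libraries. The labels do not tell if the 2 replicates came from separate cultures. All 4 libraries were combined in a single list. For each peak it gives how much more signal the immunoprecipitate held than the input, as a log2 fold enrichment, and a −log10 p, both the authors' values. The list has no header, so these readings rest on the values and on the usual column order of eCLIP peak files, and statements on strength depend on them. No value per library was used, so no error between replicates and no test over samples could be given, and all comparisons below are descriptions. Read depth behind a peak was unknown, and a gene without a listed peak is not shown to be unbound. Of 12 sympathetic and neuroblastoma lineage markers 3 held a single-gene peak and 0 held one of the distant peaks, but a peak list measures no expression, so the label of the line could not be checked.

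MOV10 is an RNA helicase that moves along single-stranded RNA and associates with Argonaute proteins of the microRNA pathway. It is best known for binding the 3′ untranslated regions of mRNAs, where microRNA sites and structured elements such as G-quadruplexes are found. A peak far from a gene's annotated 3′ end can lie in an upstream exon, in an intron, or at the end of a shorter transcript of the same gene. The gene table used here gave spans without exons, so exonic and intronic positions were not determined.

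Sequence could be read for the few distant peaks that reach into a window around an annotated transcript start, which covers 250 bases before the start and 50 from it on. These were 6 peaks in 3 genes. They are shown because they lie at or near annotated starts. Of the 6, 4 lie before or across an internal start of Tulp4, a member of the tubby-like protein family. Which Tulp4 transcript these 4 peaks come from was not determined. Each line gives up to 30 bases of the peak, 5′ to 3′ in the direction of the gene, from RefSeq GRCm38.p6. Capitals mark bases from the annotated start onward, and small letters mark bases before it.
Tulp4, peak with log2 fold enrichment 5.10, plus strand, chr17:6137900-6137929: gcatcgcagacggagactaattaatagaca
Tulp4, peak with log2 fold enrichment 4.92, plus strand, chr17:6137971-6138000: aaggagaaacagaagcctgcagcctagtct
Tulp4, peak with log2 fold enrichment 5.11, plus strand, chr17:6138055-6138084: cagtttattcatactcagtgacccgcaggc
Tulp4, peak with log2 fold enrichment 4.10, plus strand, chr17:6138133-6138162: gagggtggttccagcCCATGGAGGAGTCAT
Eif4ebp2, peak with log2 fold enrichment 3.06, minus strand, chr10:61452620-61452643: GAGCCGAGCGTGAGGAGCCAGAGC
Jph3, peak with log2 fold enrichment 3.03, plus strand, chr8:121730581-121730608: TTTTTTTCACCGCTTGCGGGATTCGCAA

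The first 3 Tulp4 stretches lie wholly before the internal start and the fourth spans it, while those of Eif4ebp2 and Jph3 lie wholly after the start. The G and C content of the printed stretches was 43.3% to 60.0% in Tulp4, 46.4% in Jph3 and 70.8% in Eif4ebp2. The whole window at the internal Tulp4 start held 48.0% G and C, against 81.0% at the outer start of the same gene and a median of 52.7% (interquartile range 45.7 to 61.7) over all 32851 windows in the table.

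The distant peaks were concentrated in few genes. The median gene held 2 of them, and 52 of the 143 genes (36.4%) held a single one. The 10 genes with most held 276 (38.7%). In 69 genes every single-gene peak was a distant one, 445 peaks in all. The other 74 genes held 269 distant peaks beside 1191 peaks nearer the 3′ end. Most lay within 50 kb, with 261 at 10 to 20 kb from the 3′ end, 287 at 20 to 50 kb, 66 at 50 to 100 kb and 100 in 21 genes at over 100 kb. By position between the ends, 230 (32.2%) were nearer to the 5′ end of the span than to the 3′ end. Both ends were taken from the peak's strand. The 230 include 13 peaks opposite to their gene's annotated strand, described below, and for 134 distant peaks no gene strand was found. Just inside the limit were peaks of Smpd3 at 10109 nt, Septin11 at 10167 and 10194.5 nt, Nf2 at 10172.5 nt and Hmbox1 at 10181.5 nt, with log2 fold enrichments of 3.19 to 3.82. Just outside it were peaks of Cadm1 at 9877 and 9971.5 nt, Tmem201 at 9885.5 nt, Strbp at 9929 nt and Tnrc6b at 9960 nt, with 3.11 to 3.84. The ranges of these few peaks overlap.

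Tcf20, the gene of a transcriptional coregulator, held the most distant peaks, 65, and no single-gene peak nearer the 3′ end. The gene lies on chromosome 15 (82808447 to 82988103, minus strand). Within it, 63 of the 65 formed a cluster at 43.3 to 48.6 kb from the 3′ end, where a cluster joins peaks less than 1 kb apart. The remaining pair touched each other at 16.8 and 16.9 kb, with log2 fold enrichments of 4.22 and 3.91. The median over the gene was 5.10 and the strongest peak, 5.95, covered 82854125 to 82854193. A peak of 4.21 at 82856414 to 82856552 was the single distant peak at the highest listed −log10 p of 400, which 84 peaks of the whole list reached. Since Tcf20 holds 64 of the 240 distant peaks at 4 or more on the log2 scale and 41 of the 59 at 5 or more, values over all distant peaks are also given without it.

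Cux1 and Farp2 carried long runs of distant peaks with no gap of 1 kb or more. Cux1 encodes a homeodomain transcription factor, and the same gene also makes the Golgi protein CASP from an alternative 3′ part. Its 39 peaks on chromosome 5 (gene 136248135 to 136567590, minus strand) formed 1 cluster of 7.96 kb, of which peaks covered 3071 nt, between 18.4 and 26.3 kb from the annotated 3′ end. They ranged from 3.04 to 5.49, median 4.18, with the strongest at 136267150 to 136267170. Farp2, which encodes a FERM-domain guanine nucleotide exchange factor, held 33 peaks on chromosome 1 (gene 93512104 to 93621976, plus strand). They formed 1 cluster of 10.5 kb, of which peaks covered 3245 nt, at 29.0 to 39.4 kb from the 3′ end, with a median of 4.01 and a strongest value of 5.43 at 93582647 to 93582829. Neither gene held a single-gene peak within 10 kb of its 3′ end.

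Several genes held all their single-gene peaks in a block shorter than 3 kb, far inside the gene. Fbln2, the gene of the extracellular matrix protein fibulin-2 on chromosome 6, held 18 peaks within 1.80 kb, at 18.2 to 19.9 kb from the 3′ end. Together they covered 1625 nt, and their values ran from 3.94 to 5.61 with a median of 4.60. Pgs1, which encodes the phosphatidylglycerophosphate synthase of cardiolipin synthesis, held 19 peaks within 1.80 kb on chromosome 11, from 3.47 to 5.26 and almost midway along a gene of 37.7 kb. Slc8a1, the sodium-calcium exchanger gene NCX1 on chromosome 17, held 17 peaks within 1.75 kb at 275 to 276 kb from the 3′ end and 88.9 kb or more from the 5′ end. Its values ran from 3.19 to 5.17 with a median of 4.11. Slc44a1, a choline transporter-like gene on chromosome 4, held 8 peaks within 1.26 kb at 55.4 to 56.7 kb, from 3.10 to 4.76.

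In other genes the distant peaks were scattered along the gene span. Chd9, a chromodomain helicase gene, held 21 peaks in 10 separate clusters over 76.4 kb, with a median of 3.26 on the log2 scale and no −log10 p above 7.12. Usp34, a large deubiquitinase gene, held 12 in 9 clusters over 97.0 kb, with a median of 3.22. Ttc3, which encodes a ubiquitin ligase with tetratricopeptide repeats, held 10 in 6 clusters over 52.6 kb, with a median of 3.14. Vps13b, of the VPS13 family of lipid transfer proteins, held 5 single peaks over 175 kb, from 3.20 to 4.21 with a median of 3.63. Of the 44 genes with 5 or more distant peaks, 22 had all of them in 1 cluster. All lay within 3 kb in 20 of the 44, within 3 to 10 kb in 6 and over more than 10 kb in 18, among them the dense runs of Farp2 and Tcf20.

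**Figure D1:**
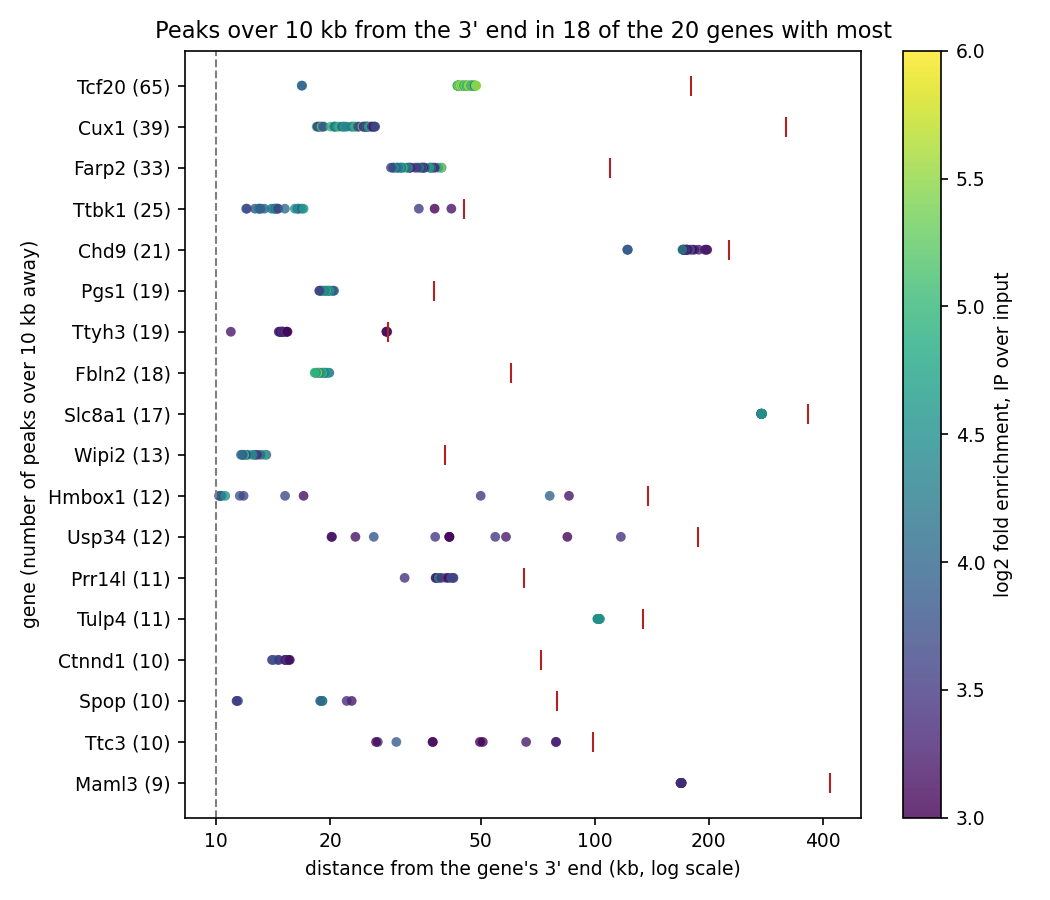
Distance from the annotated 3′ end in kb, on a log scale, of every distant peak (dots) in 18 of the 20 genes with most of them, coloured by log2 fold enrichment. Ties at the last place were ordered by name, the dashed line marks the 10 kb limit and the red tick the 5′ end of the gene span. Tcf20, Fbln2, Pgs1 and Slc8a1 show tight blocks, and Usp34, Ttc3 and Chd9 show peaks spread over 52.6 kb or more.

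The strongest distant peak was in Cntn5, the gene of a contactin that acts in neural cell adhesion, on chromosome 9 (9634223 to 10904775, minus strand). The gene held 6 peaks in 2 touching groups, 560 to 563 kb from the 3′ end and 707 kb or more from the 5′ end. A group of 3 at 10197460 to 10197584 had log2 fold enrichments of 6.32, 6.32 and 6.33, and a group of 3 at 10194272 to 10194365 had 4.17, 4.00 and 4.02. The pair at 6.32 had the same value and the same −log10 p of 26.8 and measured 5 and 10 nt. In all, 8 distant peaks (1.12%) shared both values with a touching neighbour, against 0.0216% of the other peaks. The farthest peaks were in Opcml, a cell adhesion gene of the IgLON family, 1128 kb from the 3′ end and 7.08 to 7.19 kb from the 5′ end. Its 4 peaks lay within 171 nt and were weak, from 3.27 to 3.32. Cdh18, a cadherin gene, followed with 2 touching peaks of 3.48 and 3.45 at 726 kb.

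Strong peaks were also found beyond 100 kb. Of the 100 peaks at that distance, 32 were enriched 16-fold or more, a log2 value of 4, which is near the 34.9% over all 9978 single-gene peaks in these genes. They lay in 6 of the 21 genes with peaks at that distance. Over all distant peaks, those at 4 or more lay in 39 of the 143 genes. Of the 32, Slc8a1 held 12, Tulp4 10 and Cntn5 6, Vps13b held 2, and Chd9 and the double-stranded RNA-binding protein gene Stau2 held 1 each. At 50 to 100 kb 7 of 66 peaks passed that value (10.6%, exact 95% binomial interval 4.37 to 20.6), against 31.8% at 10 to 20 kb and 41.1% at 20 to 50 kb. Without Tcf20 the last share was 24.6%.

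As a group, the distant peaks had a slightly lower fold enrichment and a lower −log10 p than the other peaks. Their median log2 fold enrichment was 3.63 (95% order-statistic interval 3.58 to 3.72, interquartile range 3.29 to 4.25), a 12.4-fold enrichment, against 3.73 (interval 3.71 to 3.75) for the other 9264 peaks. A log2 value of 4 or more was reached by 240 of 714 (33.6%, exact 95% binomial interval 30.2 to 37.2), near the 34.9% over all 9978 single-gene peaks in these genes. A −log10 p of at least 5 was reached by 526 (73.7%, interval 70.3 to 76.9), against 84.1% over all. The median −log10 p was 7.59 (interval 7.14 to 8.20), against 10.4 (10.2 to 10.6). The difference in log2 medians was −0.0031 among peaks with a −log10 p of 5 or more and 0.096 among those at 4 or more on the log2 scale. The limit of 4 leaves out peaks by the value that is compared, and Tcf20 gave 64 of the 240 distant peaks left. The intervals count peaks as independent, which peaks of the same gene are not. Without Tcf20 the median log2 fold enrichment was 3.57 and the share at 4 or more 27.1%. With each gene counted once by its median, the medians over genes were 3.45 for the 143 genes and 3.50 for the 1352 genes with other peaks. For −log10 p these medians over genes were 5.57 and 6.40, a smaller gap than over peaks. Peak width was alike, with a median of 76 nt against 73 nt, and 46.9% of the distant peaks touched another against 54.1% of the others.

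Strength did not decline evenly with distance. The median log2 fold enrichment was 3.72 at 10 to 20 kb and at 20 to 50 kb, 3.39 at 50 to 100 kb and 3.60 beyond. Tcf20 gave 63 of the 287 peaks at 20 to 50 kb, and without it that median was 3.54. Peaks just short of the limit, at 5 to 10 kb, had 3.78. The median −log10 p was 11.5 at 5 to 10 kb, 8.98 at 10 to 20 kb, 7.57 at 20 to 50 kb (6.14 without Tcf20), 6.16 at 50 to 100 kb and 6.13 beyond 100 kb. The bins share genes and differ in which genes fill them, with 21 of the 100 peaks beyond 100 kb from Chd9 and 17 from Slc8a1.

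**Figure D2:**
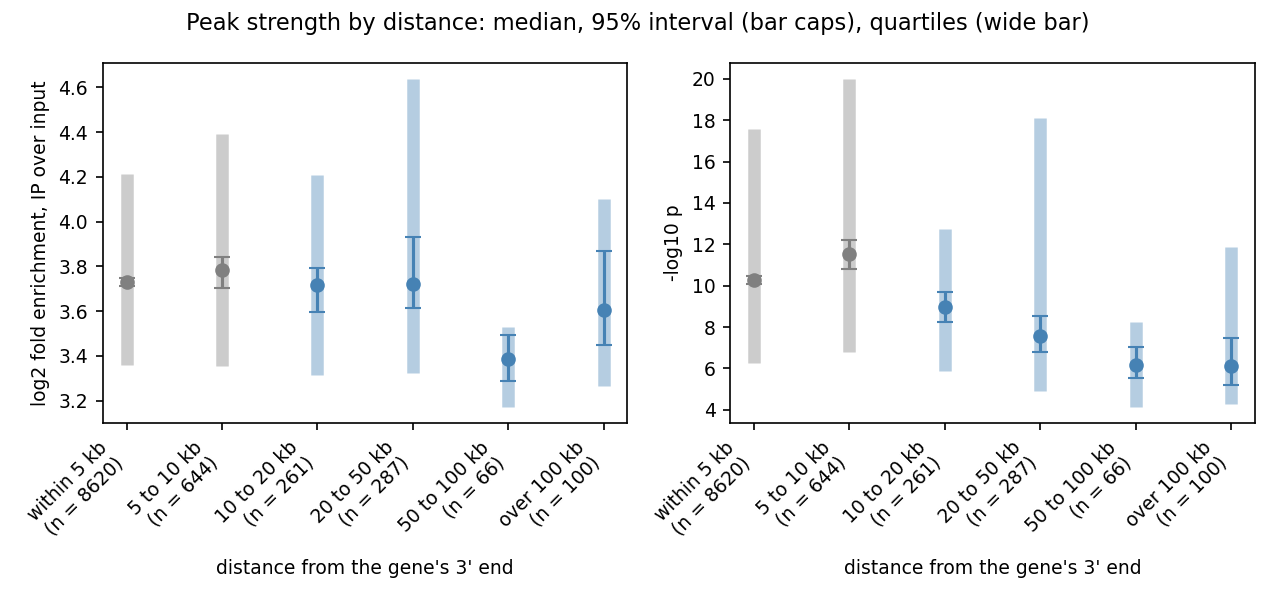
Median (dot), 95% order-statistic interval of the median (bar caps) and quartiles (wide bar) of log2 fold enrichment, left, and −log10 p, right, for single-gene peaks in genes of at least 15 kb by distance from the 3′ end, with the number of peaks under each bin. Fold enrichment is lowest at 50 to 100 kb, 3.39, while the median −log10 p goes from 11.5 at 5 to 10 kb to 6.13 beyond 100 kb.

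Genes with both kinds of peak mostly had the weaker ones far from the 3′ end. The median of the distant peaks was below that of the other peaks in 52 of the 74 genes and above it in 22. Only single-gene peaks were compared, so nearer peaks where gene spans overlap, as in Zbtb20, were left out. The median difference, distant minus other, was −0.27 on the log2 scale (95% order-statistic interval over genes −0.46 to −0.08). In 17 of the 74 genes the strongest peak was a distant one. These genes held 269 distant peaks against 1191 others, so this count alone does not show which kind was stronger. With genes of 3 or more distant peaks alone, it was lower in 19 and higher in 11 of 30, with a median difference of −0.21. When peaks below 4 were left out, 7 genes still held both kinds, with a median difference of 0.03; this leaves out peaks by the value that is compared.

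Wide gaps were found in several genes with strong peaks near the 3′ end; since no listed value is below 3, a high nearer median leaves room for a wide gap. In Hipk2, a nuclear kinase gene, 5 distant peaks had a median of 3.31 against 5.20 for the 18 others. In Ttyh3, a tweety-family gene, 19 distant peaks had 3.30 against 4.93 for 82 others. Of the 19, 15 lay at 14.6 to 15.4 kb from the 3′ end, and 3 lay 171 to 324.5 nt from the 5′ end of the span. Cbx5, the gene of heterochromatin protein HP1α, had 1 distant peak at 3.49 against a median of 5.25, and Ago2, the gene of the Argonaute that slices target RNA, had 1 at 3.20 against 4.75. The gap was smaller in Hmbox1, a homeobox gene, where 12 distant peaks over 75.4 kb had 3.76 against 4.68 for 48 others.

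The order was the reverse in the other 22 genes. Tulp4 had a median of 4.49 in 11 distant peaks and 3.47 in 3 peaks near the 3′ end, a difference of 1.02. Wipi2, which encodes a phosphoinositide-binding protein of autophagy, had 4.15 in 13 distant peaks and 3.55 in 7 others. Its distant peaks lay within 2.05 kb at 11.6 to 13.6 kb from the 3′ end, and the others within 2373.5 nt of it. Ttbk1, a tau tubulin kinase gene, had 4.11 in 25 distant peaks and 3.56 in 10 others. Of its 25, 22 lay at 12.0 to 17.0 kb, with 3.52 to 4.67. The other 3, at 34.3, 37.8 and 41.8 kb, had 3.53, 3.02 and 3.17, the first of them within the range of the 22.

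**Figure D3:**
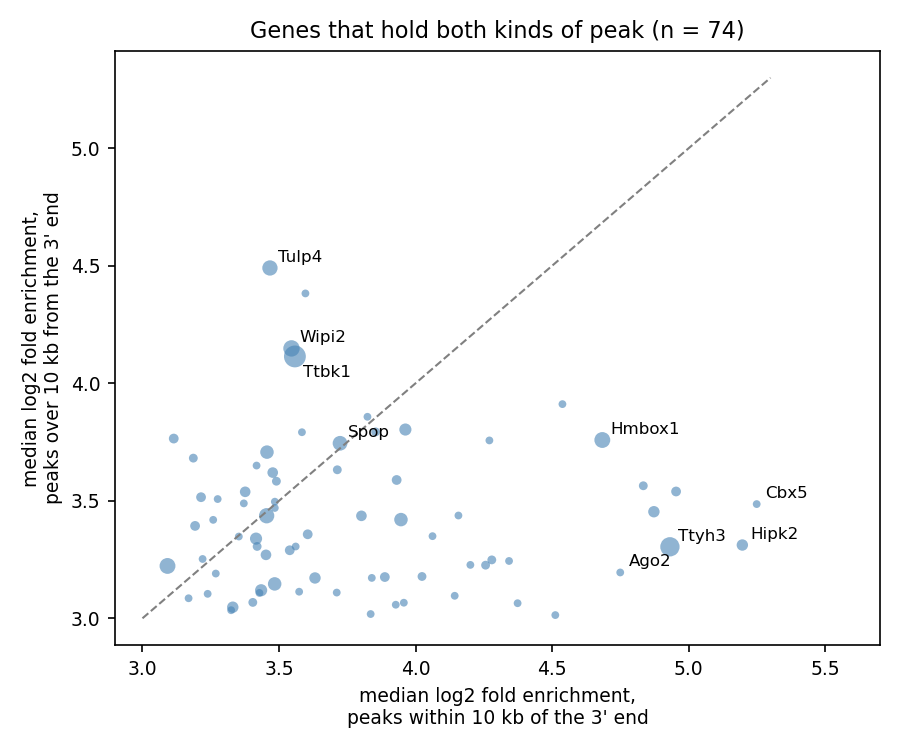
Median log2 fold enrichment of the distant peaks (vertical) against that of the nearer peaks, at most 10 kb from it (horizontal) in the 74 genes that hold both, with dot area growing with the number of distant peaks and equality dashed. Points below the line number 52. Tulp4, Wipi2 and Ttbk1 lie above it, and Hipk2, Cbx5, Ttyh3 and Ago2 far below.

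Few distant peaks lay at the 5′ end of the gene, and their fold enrichment was low. Within 5 kb of the 5′ end lay 31 distant peaks in 15 genes, with a median log2 fold enrichment of 3.24 (order-statistic interval 3.09 to 3.40) against 3.66 for the other 683, and 3 of the 31 reached 4. Their median −log10 p was 7.88, against 7.59 for the others. Of the 31, 2 lay in Zfp335, whose annotated strand is opposite to the peaks, so that this end is its 3′ end. Without them 29 peaks in 14 genes had a median of 3.17, and 2 reached 4. Of these 2, the peak of 4.27 lies in Il10rb, for which no annotated strand was found. The nearest to the 5′ end was in Jph3, the gene of a junctophilin that joins plasma membrane and endoplasmic reticulum, where peaks of 3.03 and 3.11 lay 66 and 188 nt from it. Next came Ttyh3, then the zinc finger gene Zfp652 with 1 peak of 3.35 at 186 nt. Zc3h7b, a CCCH zinc finger gene, had peaks of 3.44 and 3.40 at 233.5 and 247.5 nt among 8 distant peaks in 4 clusters. Eif4ebp2, which encodes a repressor of the cap-binding factor eIF4E, had 1 peak of 3.06 at 242 nt, while its 19 peaks near the 3′ end had a median of 4.37.

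Measured from annotated transcript starts, the strongest peaks were those of Tulp4. The table of starts held a start on the peak's strand for 567 distant peaks, and 35 of them (6.17%), in 13 genes, lay within 1 kb of one, 30 after the start and 5 before it. Of 7276 other peaks with a start to measure from 0 did, which follows in large part from the rule, since those lie near the 3′ end. At the outermost start listed for the gene were 20 peaks in 10 genes, 66 to 939.5 nt past it. Their median was 3.16 and their highest value 4.05, in Tmcc2. That start can lie inside the gene span, as in Pabpc4, whose peaks were 1043 nt or more from the 5′ end of the span. Within 1 kb of an inner start were 15 peaks. Of these, 11 were in Tulp4, from −685 to 922.5 nt relative to a start at 6138148, the second listed for the gene after 6106830, and their values were 3.89 to 5.11. Chd9 had 3, at 102 to 514 nt past an inner start with 3.42 to 3.92, and Vipas39 had 1 with 3.57. The 5 peaks before a start were all in Tulp4, and the sequences above show 3 of them.

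**Figure D4:**
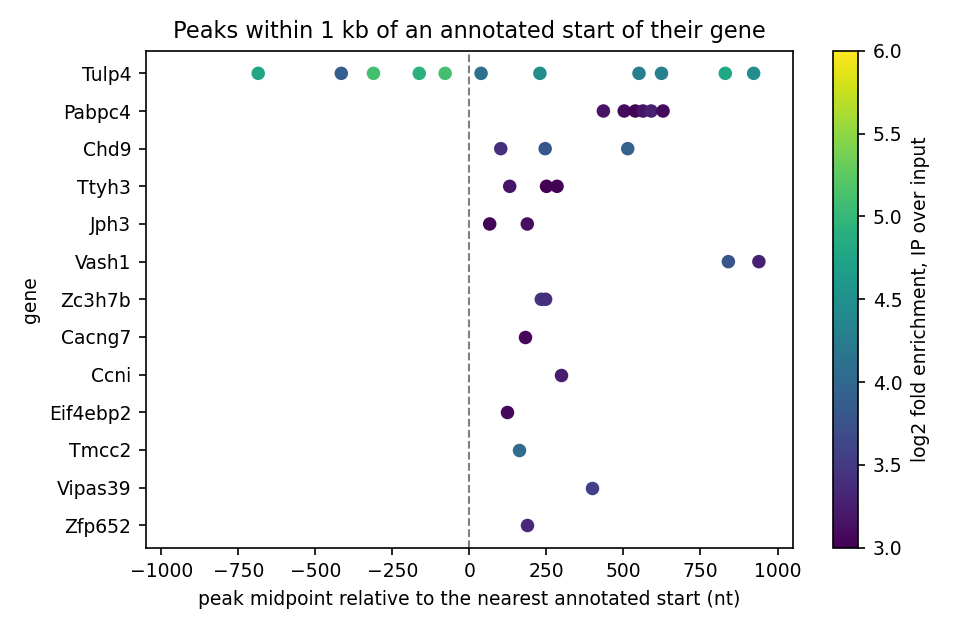
Position in nt of the 35 distant peaks that lie within 1 kb of an annotated start of their gene, relative to that start (dashed), one row per gene, coloured by log2 fold enrichment. All 5 peaks before a start and the highest values, up to 5.11, belong to Tulp4.

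For some of these peaks the gene named by the rule was not on the peak's strand. An annotated strand was found for 105 of the 143 genes, holding 580 of the 714 peaks. It matched the peak in 567 and was opposite in 13 (2.24%), in Mfsd4a, Tigit and Zfp335. Among the 7276 other peaks with a known gene strand 0 were opposite. This contrast follows at least in part from the rule, which takes the gene's direction from the peak's strand. An opposite-strand peak near the annotated 3′ end of its gene therefore counts as distant. The 13 lay 1372 to 13649.5 nt from that end. For these 13 the distance given by the rule is from the annotated 5′ end. Leaving them out gave 701 peaks in 140 genes and a share of 7.03% of single-gene peaks, against 7.16% with them.

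All 13 opposite-strand peaks lay shortly past the annotated 3′ end of another gene on their own strand. The 7 in the span of Mfsd4a, a transporter-family gene on chromosome 1, lay 1523 to 4730 nt past the end of Elk4, an ETS transcription factor gene, and reached 4.59, while the 3 peaks inside Elk4 reached 3.09. The 4 in the span of Tigit, an immune receptor gene of T and NK cells on chromosome 16, lay 1331.5 to 5394.5 nt past the end of the zinc finger gene Zbtb20 and reached 4.05. Zbtb20 itself held 13 peaks up to 3.92, 7 of them in its last 5 kb. The 2 in the span of Zfp335 on chromosome 2 had 4.18 and 3.87 and lay 1814 and 2911.5 nt past the end of Pcif1, the gene of a cap-specific adenosine methyltransferase, whose single peak of 3.46 had its midpoint 7.5 nt before its end. Whether the transcripts of Elk4, Zbtb20 and Pcif1 extend there was not tested.

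**Figure D5:**
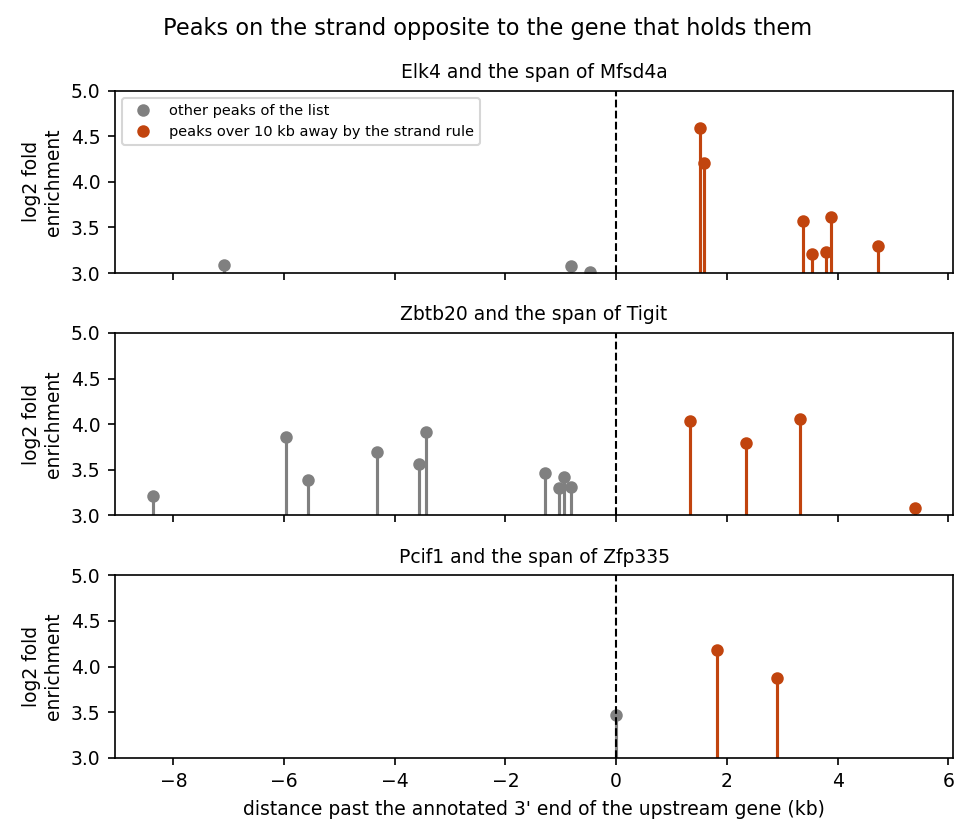
Log2 fold enrichment of peaks by distance in kb past the annotated 3′ end (dashed) of Elk4, Zbtb20 and Pcif1, on the strand of these genes, from 10 kb before the end onward, with an axis that starts at the lowest listed value of 3. Red peaks are the 13 assigned to Mfsd4a, Tigit and Zfp335 by the rule, and they lie 1331.5 to 5394.5 nt past the end, beyond the grey peaks inside the upstream gene.

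By function, distant peaks occurred in 33 of 232 listed genes with a single-gene peak (14.2%, against 10.1% of all 1421). The 11 lists were written with earlier results known and no list was tested. Genes with distant peaks had a median span of 83.5 kb, against 51.3 kb for the genes without. These shares were not adjusted for gene span. Transcription factor genes had distant peaks in 7 of 30, with 70 peaks and a median log2 fold enrichment of 3.91. Cux1 gave 39 of the 70 and had a median of 4.18, and no median without it was computed. Cux1 led with 5.49, Hmbox1 reached 4.51, and Tead1, of the Hippo pathway, had 2 of its 68 peaks at this distance. Chromatin regulators had them in 6 of 34, with 101 peaks and a median of 4.84, against 3.63 over all distant peaks. Without Tcf20, which gave 65 of the 101, the other 36 had a median of 3.33, below that of all distant peaks. After Tcf20 came Ep400, an ATPase of the TIP60 complex (4.48, 8 peaks), Chd9 and Cbx5.

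Kinase and phosphatase genes had distant peaks in 7 of 35, with 26 peaks and a median of 3.31. They were led by Camkk2, a calcium-calmodulin-dependent kinase kinase (4.48, 7 peaks), Hipk2 (3.92), Hipk3 (3.91, 6 peaks) and Cdk17 (3.59, 1 peak). Adhesion and axon guidance genes had them in 3 of 16, with 17 peaks and a median of 4.00. These were Cntn5, the synaptic adhesion gene Cadm1 (4.40, 8 peaks at 10.2 to 11.1 kb) and the semaphorin receptor gene Nrp2 (3.44, 3 peaks). Cntn5 gave 6 of the 17 peaks, all at 4.00 or more, and no median without it was computed. In each of the remaining lists 2 genes at most held distant peaks. They were found in 2 of 11 genes of microRNA silencing and deadenylation, Pabpc4, a cytoplasmic poly(A)-binding protein gene (3.28, 6 peaks), and Ago2. Of 10 genes of mRNA decay, P-bodies and RNA helicases they were found in 2, the Roquin genes Rc3h1 (3.35) and Rc3h2 (3.33). Of 16 genes of splicing and other RNA-binding proteins only Khdrbs1, which encodes Sam68, had them, 3 up to 3.38. Of 28 cytoskeleton, motor and scaffold genes 2 did, Dclk1, a doublecortin-like kinase gene (4.12), and Dlg4, the gene of PSD-95 (3.42). Of 23 ubiquitin system genes 2 did, Usp34 (3.81) and Mib1 (3.60). Of 24 genes of GTPases and their regulators only Gnao1, a G protein α subunit gene, did (3.80, 4 peaks). Of 5 ion channel and receptor genes with a peak 0 did.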

How the data were processed

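The authors deposited 1 peak list without a header for 4 eCLIP libraries, giving each peak's position and strand beside 2 values. The log2 fold enrichment and the −log10 p are the authors', deposited without a stated scale. Which aligner, caller and limits made it is not given in the sources used here. Per the submitters' processing notes, mm10 and GRCm38.p6 were the builds. Starts were converted to count from 1. Peaks were assigned by their midpoint to RefSeq gene spans, and gene strands, starts and sequence came from the RefSeq start-window table, both GRCm38.p6. Python 3.11.15, pandas 2.3.3 and scipy 1.17.1 were used. Assignment and merging were tested on simulated data.

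Intervals are exact binomial for shares and order-statistic (binomial) for medians, at 95%, and cover neither replicates nor shared genes. Named genes were the 10 with most distant peaks, the 10 with the strongest, the 5 with the farthest, the 5 nearest the 5′ end and up to 4 per list by strength, of which 2 are not reported here. Genes in the paragraphs on scattered peaks, on both kinds of peak, on starts and on strands were chosen after their values were seen. Members, lists and rules were chosen with earlier results of these data known. The strand and start comparisons and the 1 kb cluster gap were added after the data had been seen. Libraries were not analysed singly.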

Additional observations from a re-analysis of the deposited data

How the results depend on the processing

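No paired analysis was possible because the list combines the replicates and carries no value per library. For the same reason no replicate could be left out. Of 99 values recomputed, 69 stayed within the interval of the reported value, or within 1.5 times a count. With only peaks of log2 fold enrichment of at least 4, the difference of the distant from the other peaks turned to 0.096 and the within-gene difference to 0.031. This limit leaves out peaks by the value that is compared. Left were then 240 peaks in 39 genes, 32 of them with distant peaks alone, with medians of 4.53 for log2 fold enrichment, 14.8 for −log10 p and 34372 nt for distance. With only −log10 p of at least 5, the share of single-gene peaks was 6.27%, the medians 3.81 and 9.67, the difference −0.0031 and the share at log2 fold enrichment 4 or more 41.1%. A limit of 7500 nt gave a share of 9.04%, a median distance of 20084.25 nt and a median −log10 p of 8.51. A limit of 20000 nt gave 453 peaks, 4.54%, 44654 nt, 6.86 and 43 genes with distant peaks alone. Genes of at least 30000 nt gave 8.37% and 31473 nt. Merging touching peaks gave a median −log10 p of 6.86. Without Tcf20 the share was 6.55%, the median distance 24360 nt, the medians 3.57 and 7.0, the difference −0.16 and the share at 4 or more 27.1%. Leaving out the 13 opposite-strand peaks, an alternative added after seeing the data, taking the nearer peak end, or leaving out peaks within 5000 nt of the 5′ end moved none of these values past its interval. Causes were not tested. Depth was unknown, so counting error per peak could not be given.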

Other observations

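Very short peaks were more frequent among the distant peaks, with 31 (4.34%) of 10 nt or less against 1.51% of the other peaks. The distant peaks lay on 20 chromosomes, with 125 on chromosome 5, 92 on chromosome 15 and 75 on chromosome 1. Single genes gave many of these, with 39 of the 125 in Cux1, 65 of the 92 in Tcf20 and 33 of the 75 in Farp2. Shares of all peaks by chromosome were not computed. Genes whose single-gene peaks were all distant had a median strongest log2 fold enrichment of 3.86. It was 3.85 in the 1278 genes with other peaks only. The 74 genes with both had 4.58 and held a median of 12 peaks. The immune and sensory receptor genes Il10rb (1 peak of 4.27, 724.5 nt from the 5′ end of its span) and Mrgprx2 (3 peaks up to 3.83) were picked out after their values were seen. No annotated strand was found for Il10rb, so its 5′ end was taken from the peak's strand.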
